A study of Mus musculus with 12 samples.

Results

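Nr2f1 and 9 other genes that have been tied to the dormancy of disseminated tumor cells were followed through D2A1 and D2.OR cells in 2D and 3D culture. The 10 genes (Nr2f1, Nr2f2, Sox9, Bhlhe40, Bhlhe41, Dab2, Gas6, Axl, Tyro3 and Mertk) were taken by symbol from the 52550 genes of the deposited table. Each symbol matched 1 protein-coding gene, and all 10 passed the filter on low counts, which left 16823 genes for testing. D2A1 and D2.OR are mouse mammary cancer cell lines that arose from separate tumors of D2 hyperplastic alveolar nodules in different mice. D2A1 cells proliferate after dissemination, and D2.OR cells are used as the dormant counterpart. Each line was grown for a week either on plastic (2D) or on a layer of Matrigel (3D), and wells were pooled for each culture. The methods describe 2D culture in more than 1 medium, so whether the medium also differed between 2D and 3D cannot be told here. The 4 groups were therefore D2A1 2D, D2A1 3D, D2.OR 2D and D2.OR 3D, with 3 libraries each. The replicate number is also the batch number, and each batch was sequenced in a lane of its own. Since each side of the line comparison is 1 cell line, dormant behaviour and any other difference between these lines cannot be told apart.

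Dormant tumor cells leave the cell cycle without dying and can resume growth later. NR2F1, an orphan nuclear receptor, is known to hold disseminated tumor cells in quiescence, with SOX9 and the retinoic acid receptor RARB among the factors that act with it. BHLHE40 and BHLHE41 are repressors of the circadian clock that bind E-boxes, and BHLHE41 has been tied to quiescence downstream of TGF-beta2 and p38. GAS6 is a vitamin K-dependent ligand of the TAM receptor tyrosine kinases TYRO3, AXL and MERTK, and in bone marrow it has been linked to tumor cell quiescence. DAB2 is an endocytic adaptor that also takes part in TGF-beta and Wnt signaling.

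On GRCm38, the transcription factor genes were annotated as Nr2f1 (ENSMUSG00000069171.14, chr13:78188973-78199757, minus strand), Nr2f2 (ENSMUSG00000030551.14, chr7:70351944-70366735, minus strand), Sox9 (ENSMUSG00000000567.5, chr11:112782224-112787760, plus strand), Bhlhe40 (ENSMUSG00000030103.11, chr6:108660629-108666925, plus strand) and Bhlhe41 (ENSMUSG00000030256.11, chr6:145858243-145865558, minus strand). The adaptor gene was Dab2 (ENSMUSG00000022150.16, chr15:6299788-6440712, plus strand) and the ligand gene Gas6 (ENSMUSG00000031451.6, chr8:13465374-13494490, minus strand). The receptor genes were Axl (ENSMUSG00000002602.16, chr7:25757273-25788705, minus strand), Tyro3 (ENSMUSG00000027298.17, chr2:119797733-119818104, plus strand) and Mertk (ENSMUSG00000014361.5, chr2:128698956-128802894, plus strand).

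Stretches before the start of 3 of the genes are shown, since the results turn on the ligand Gas6, on its most abundant receptor Axl, and on Bhlhe41, the only one whose window held a motif that was searched for. The sequences are from RefSeq on GRCm38.p6 and read 5′ to 3′ along the gene. They end before the first base that the deposited gene table counts as transcribed. Capitals mark the E-box CACGTG.
Gas6, chr8:13494536-13494785, minus strand: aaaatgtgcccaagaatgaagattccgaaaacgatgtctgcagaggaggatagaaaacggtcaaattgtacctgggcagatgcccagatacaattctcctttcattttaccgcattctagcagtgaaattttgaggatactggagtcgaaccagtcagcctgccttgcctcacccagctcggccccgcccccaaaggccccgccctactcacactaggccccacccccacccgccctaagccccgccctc
Axl, chr7:25788734-25788983, minus strand: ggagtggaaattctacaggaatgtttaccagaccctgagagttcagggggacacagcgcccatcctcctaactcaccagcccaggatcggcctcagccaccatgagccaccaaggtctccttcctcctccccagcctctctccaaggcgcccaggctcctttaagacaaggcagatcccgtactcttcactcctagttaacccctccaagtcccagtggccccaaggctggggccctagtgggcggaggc
Bhlhe41, chr6:145865559-145865670, minus strand: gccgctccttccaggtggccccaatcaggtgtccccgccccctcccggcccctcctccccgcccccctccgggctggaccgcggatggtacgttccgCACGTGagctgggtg
Of the 10 genes, 8 were matched to a promoter window in the RefSeq table used here, and Sox9 and Bhlhe40 were not analysed for sequence. The windows, 250 bases before each annotated start, were searched on both strands for the E-box CACGTG, the nuclear receptor element AGGTCA and the SOX core ACAATG, none of which overlap one another. The 8 genes had 10 windows, and the E-box of Bhlhe41, which begins 153 bases before its RefSeq start, was the only match. Among all 32851 windows of this length, 6.02% held CACGTG, 14% held AGGTCA and 10.7% held ACAATG. The windows of Bhlhe41 (31 CpG, 73.6% GC) and Tyro3 (24 CpG, 73.2% GC) and the first of the windows of Nr2f1 (22 CpG, 72% GC) were rich in CpG, against medians of 6 CpG and 52.4% GC over all windows. The other window of Nr2f1 held 2 CpG (39.6% GC), that of Nr2f2 held 1 CpG and that of Axl 5. The windows of Nr2f1 and Tyro3 lay within the gene bodies of the deposited table, and so did part of that of Bhlhe41.

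Levels are given in TPM, the authors' unit, which is scaled for gene length and for the library. Library totals lay between 47589611 and 73325069 expected counts, with a median of 61747126. Batch 1 stood apart from batches 2 and 3. Between them, 2224 of the 16823 genes differed (13.2%) in edgeR's quasi-likelihood test with a Benjamini-Hochberg adjusted p under 0.05, the threshold used throughout. Of the 10 genes, Gas6, Axl and Mertk were higher in batch 1, beside 8.43% of all genes, and none was lower, beside 4.79%. Values without batch 1 are therefore given beside results between the cultures whose call they change. Cell identity was checked with marker lists. The luminal keratin Krt8 was at 0.78 to 2.31 TPM in D2A1 libraries and at 227.4 to 1021.96 TPM in D2.OR libraries, and the epithelial cadherin Cdh1 was at 0.02 to 0.28 TPM and at 8.93 to 183.31 TPM. Of the defining epithelial markers, Krt8, Cdh1, Krt7, Krt14 and Epcam were at or near 0 in D2A1 cells, whereas Krt18 was at 92.71 TPM or more in all 12 libraries. Of 9 markers in this list 7 were tested, and 7 were higher in D2.OR cells in 2D and 6 in 3D. The 7 in 2D included the mesenchymal marker Vim, at 732.67 to 2482.33 TPM in D2A1 2D and 3105.22 to 5234.66 TPM in D2.OR 2D libraries. Krt5 and Krt19 were at most 0.14 TPM in every library. The part of these markers in the line differences given here was not tested. Of 11 macrophage and leukocyte markers, only Cd68 and Cd14 passed 1 TPM, and Ptprc, Adgre1, Lyz2, C1qa, C1qb and C1qc were each at or under 0.09 TPM in every library. Their summed level, nearly all of it Cd14 and Cd68, was 24.75 to 72.88 TPM in D2A1 2D, 40.56 to 191.9 TPM in D2A1 3D, 18.05 to 51.51 TPM in D2.OR 2D and 12.84 to 55.89 TPM in D2.OR 3D libraries. The summed level of 7 endothelial markers was at most 0.91 TPM. From 2D to 3D in D2.OR cells, 1 of 7 epithelial markers tested, Cdh1, passed and was lower, a call lost in 11 of 23 alternatives. DESeq2 called 4 of 7 lower there, beside 3.78% of all genes. Without batch 1, 3 of 7 epithelial and 3 of 7 fibroblast markers were lower in D2.OR cells, beside 4.71%. In D2A1 cells 3 of 7 of each list passed in that fit, 2 higher and 1 lower, beside 36.4%. The part of these markers in changes between the cultures was not tested.

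**Figure D1:**
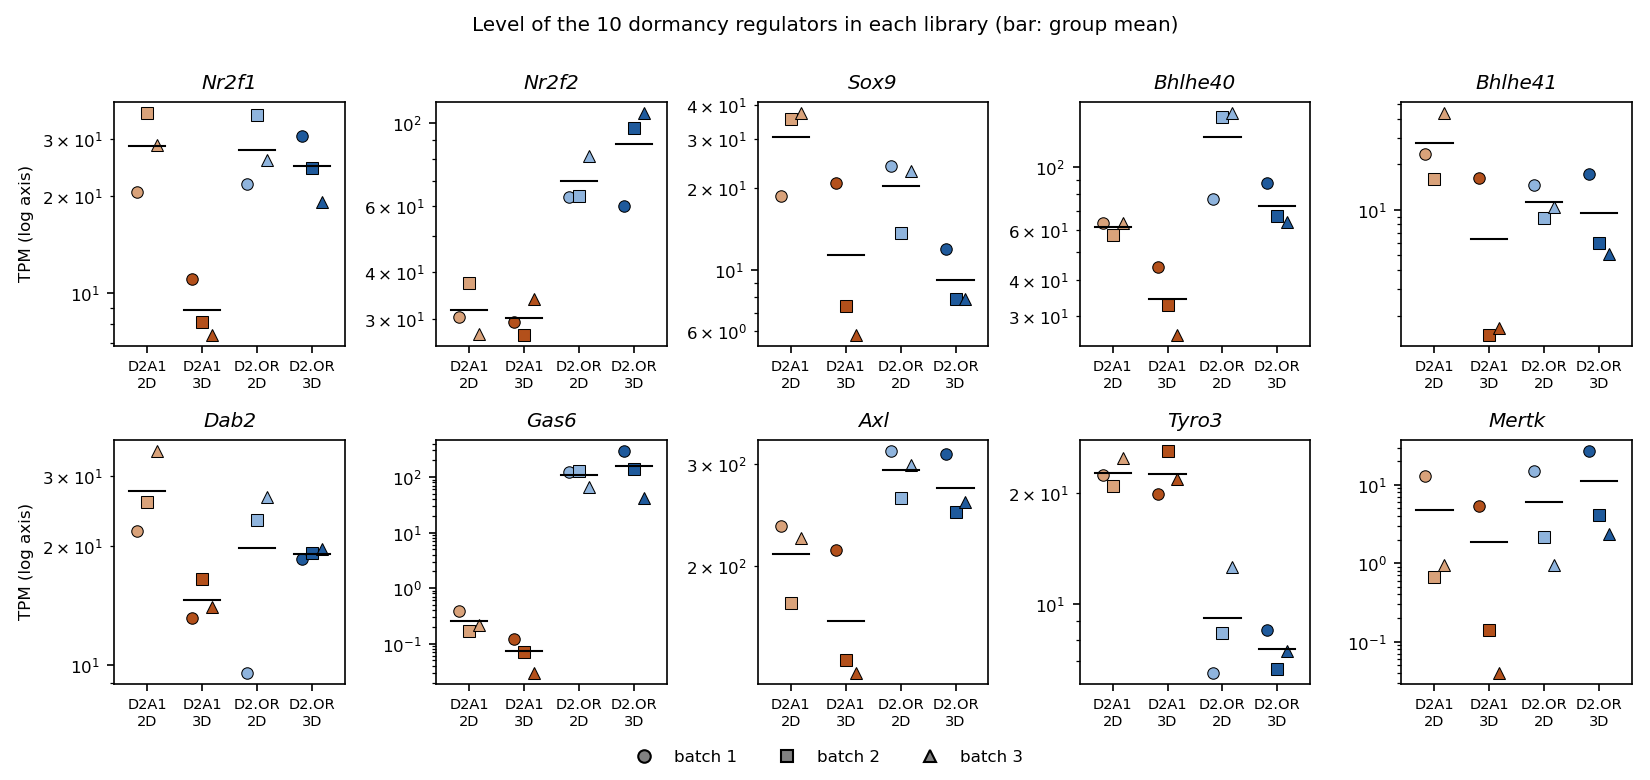
TPM (log axis) of the 10 genes in each of the 12 libraries, by group, with 1 marker shape for each batch and a bar at the group mean. Nr2f1 is low only in the 3 D2A1 3D libraries, Gas6 is separated by cell line in both cultures, and Mertk is highest in batch 1 of every group.

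Between the cell lines, 5 of the 10 genes differed in 2D and 7 in 3D. In 2D, Nr2f2, Bhlhe40, Gas6 and Axl were higher and Tyro3 was lower in D2.OR cells. In 3D, Nr2f1 and Mertk joined those that were higher. These shares lie beside a background of 49.7% of all tested genes in 2D (25.4% higher and 24.4% lower in D2.OR) and 53.7% in 3D (27.6% higher and 26% lower). In 2D the share of the 10 genes that differed was near that background. The median log2-fold change (D2.OR–D2A1) of the 10 genes was 0.31 in 2D and 1.03 in 3D, against medians of 0.00 over all genes in both. Between the cultures, Nr2f1 fell in D2A1 cells and none of the 10 genes passed the threshold in D2.OR cells, beside 3.58% and 1.62% of all genes (1.37% higher and 2.21% lower in D2A1, 0.838% higher and 0.779% lower in D2.OR). In D2.OR cells 2 of the 10 genes were at an unadjusted p under 0.05 in edgeR, and DESeq2 called 0. The replicate numbers mark batches, and nothing in the sources used here says that the batches were separate thaws or passages, so the p-values measure the spread between these cultures.

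**Figure D2:**
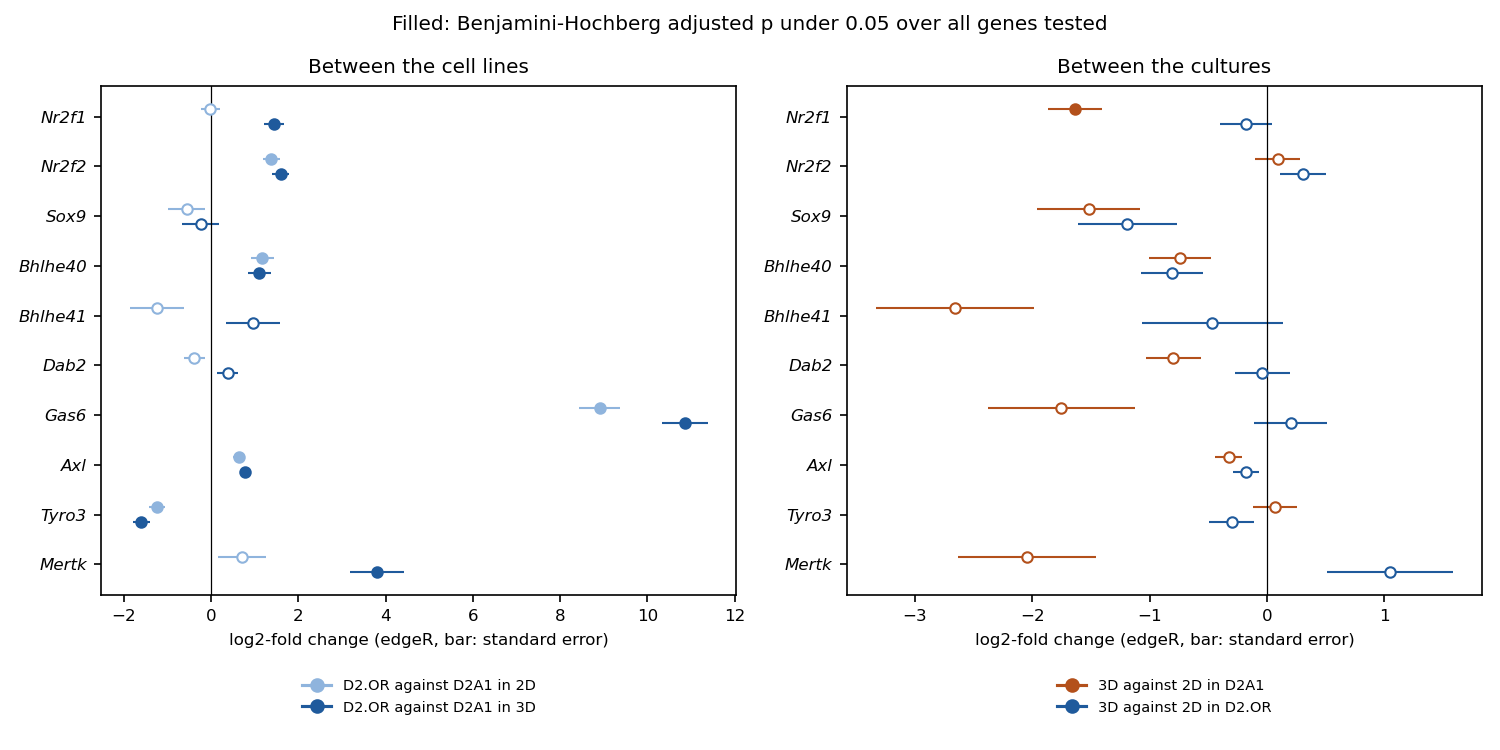
Log2-fold changes of the 10 genes between the cell lines (left) and between the cultures (right), with standard errors from edgeR and filled points for an adjusted p under 0.05. Gas6 lies at 8.91 in 2D and 10.86 in 3D, far from the other genes, and Nr2f1 is the only filled point between the cultures.

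Nr2f1 separated 1 group from the other 3. Its level was 20.62, 36.3 and 28.89 TPM in batches 1, 2 and 3 of D2A1 2D, and 11.05, 8.1 and 7.42 TPM in D2A1 3D. D2.OR 2D libraries held 21.82, 35.82 and 25.8 TPM and D2.OR 3D libraries 30.7, 24.5 and 19.18 TPM. The highest D2A1 3D library lay under the lowest library of every other group, while the other 3 groups overlapped one another. In D2A1 cells Nr2f1 fell by 1.64 (SE 0.23) on the log2 scale from 2D to 3D (adjusted p = 0.0216), that is, 3.11-fold. In the same comparison 1 of the 4 macrophage and leukocyte markers tested, Cd14, rose by 1.73 (SE 0.35, adjusted p = 0.0424). Without batch 1, 3 of 3 such markers tested passed (2 higher, 1 lower), beside 36.4% of all genes. Cd68 was at 16.82 and 32.13 TPM in batches 2 and 3 of D2A1 2D and at 6.21 and 5.65 TPM in those of D2A1 3D. The part of these markers in the fall of Nr2f1 was not tested. In D2.OR cells the log2-fold change (3D–2D) was -0.18 (SE 0.22, adjusted p = 0.725), with 0.38, -0.46 and -0.47 in batches 1, 2 and 3. With batch 1 left out it was -0.47 (SE 0.11, adjusted p = 0.0447) in D2.OR cells, past the threshold, and -1.96 (adjusted p = 0.000164) in D2A1 cells. Between the lines, the log2-fold change (D2.OR–D2A1) was -0.02 (SE 0.22, adjusted p = 0.954) in 2D. In 3D Nr2f1 was 2.72-fold higher in D2.OR cells (1.44, SE 0.23, adjusted p = 0.000718), a call that held in 23 of 23 alternatives.

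The test of whether the 2D-to-3D change of Nr2f1 differed between the lines gave an interaction of 1.46 (SE 0.32) with an unadjusted p of 0.00123 and an adjusted p of 0.11. The difference was 1.34, 1.52 and 1.46 in batches 1, 2 and 3, and so went the same way in 3 of 3 batches. It did not pass the threshold. Of all 16823 genes, 4 did (0.0238%: 0.0178% higher and 0.00594% lower), and 2990 had an unadjusted p below 0.05. With batch 1 left out, the interaction of Nr2f1 was 1.49 (SE 0.15, adjusted p = 0.00312) and by DESeq2's likelihood-ratio test on all libraries 1.49 (adjusted p = 0.00244). The fall in D2A1 cells was past the threshold in 16 of 23 alternative fits, and its adjusted p rose to 0.523 without replicate 2 and to 0.54 without replicate 3, fits in which no gene at all passed. It also missed the threshold when D2A1 2D replicate 2 or 3 or D2A1 3D replicate 2 or 3 was left out alone (adjusted p = 0.115, 0.0918, 0.146 and 0.152) and when only the 6 D2A1 libraries were fitted (0.105). Those fits called 0%, 0.133%, 0% and 0% of all genes, and the fit of the 6 libraries 0.0981%. The log2-fold change stayed between -1.96 and -1.47 in these alternatives.

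Nr2f1 overlaps A830082K12Rik, an antisense RNA, over 1741 bases. That gene reached at most 15.98 TPM, and since the strandedness of the libraries is not given in the sources used here, reads in the overlap cannot be assigned to one of the pair with certainty. Nr2f2 overlaps B130024G19Rik (1826 bases, at most 2.66 TPM) and Bhlhe41 overlaps Gm43909 (1876 bases, at most 1.55 TPM) in the same way.

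Nr2f2, the paralog of Nr2f1 (COUP-TFII), passed the threshold between the lines and in neither line between the cultures. D2A1 libraries held 30.4, 37.31 and 27.32 TPM in 2D and 29.38, 27.19 and 33.88 TPM in 3D. D2.OR libraries held 63.65, 64.05 and 81.82 TPM in 2D and 59.99, 97.23 and 106.67 TPM in 3D. All 6 D2.OR libraries were above all 6 D2A1 libraries. Nr2f2 was 2.6-fold higher in D2.OR cells in 2D (log2-fold change 1.38, SE 0.20, adjusted p = 0.000471) and 3.03-fold higher in 3D (1.60, SE 0.20, adjusted p = 0.000192), and both calls held in 23 of 23 alternatives. Its change from 2D to 3D was 0.09 (SE 0.19, adjusted p = 0.782) in D2A1 and 0.31 (SE 0.19, adjusted p = 0.442) in D2.OR cells. The ratio of Nr2f2 to Nr2f1 in TPM was 0.946 to 1.47 in D2A1 2D and 2.66 to 4.57 in D2A1 3D, without overlap. In D2.OR it was 1.79 to 3.17 in 2D and 1.95 to 5.56 in 3D, with overlap.

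Sox9, a SOX-family factor of stem and progenitor cells, did not pass the threshold in any of the 5 comparisons. It was at 18.63, 35.5 and 37.47 TPM in D2A1 2D and at 20.83, 7.37 and 5.82 TPM in D2A1 3D. In D2.OR cells it was at 23.9, 13.6 and 23.02 TPM in 2D and at 11.9, 7.84 and 7.86 TPM in 3D. The D2.OR 3D libraries all lay under the D2.OR 2D libraries, whereas the D2A1 groups overlapped through batch 1. The log2-fold change (3D–2D) was -1.52 (SE 0.44, adjusted p = 0.0677) in D2A1 and -1.19 (SE 0.42, adjusted p = 0.192) in D2.OR cells. In D2A1 the within-batch values were 0.18 in batch 1, -2.11 in batch 2 and -2.54 in batch 3. Without batch 1 both were past the threshold, at -2.31 (adjusted p = 0.000677) and -1.22 (adjusted p = 0.0232). Leaving out D2A1 2D replicate 1 or D2A1 3D replicate 1 alone also brought the change in D2A1 cells past it (adjusted p = 0.00371 and 0.0149). Between the lines Sox9 differed by -0.56 (SE 0.42, adjusted p = 0.301) in 2D and by -0.23 (SE 0.42, adjusted p = 0.663) in 3D, and the 2D value was -0.88 (adjusted p = 0.0139) without batch 1.

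The 2 clock repressors differed from each other. Bhlhe40 was at 63.55, 57.36 and 63.4 TPM in D2A1 2D and at 44.52, 32.75 and 25.71 TPM in D2A1 3D. D2.OR libraries held 76.76, 149.73 and 154.69 TPM in 2D and 87.63, 66.84 and 63.73 TPM in 3D. Within each culture all D2.OR libraries were above all D2A1 libraries. Bhlhe40 was 2.26-fold higher in D2.OR cells in 2D (log2-fold change 1.17, SE 0.27, adjusted p = 0.00568) and 2.16-fold higher in 3D (1.11, SE 0.26, adjusted p = 0.00656). The adjusted p of these comparisons was 0.105 and 0.0688 without replicate 2, and 0.0686 and 0.0608 without replicate 3. Its log2-fold changes (3D–2D) of -0.74 (SE 0.26) in D2A1 and -0.81 (SE 0.26) in D2.OR cells missed the threshold (adjusted p = 0.0985 and 0.163). Without batch 1 they were -0.90 (adjusted p = 0.000785) and -1.17 (adjusted p = 0.00171).

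Bhlhe41 did not pass the threshold in any of the 5 comparisons. D2A1 2D libraries held 23.26, 16.01 and 43.74 TPM, and D2A1 3D libraries 16.11, 1.5 and 1.65 TPM. D2.OR libraries held 14.49, 8.79 and 10.42 TPM in 2D and 17.25, 6.04 and 5.11 TPM in 3D. In D2A1 3D, batch 1 was close to the level of 2D cultures and batches 2 and 3 were far under it. The log2-fold change (3D–2D) was -2.66 (SE 0.67, adjusted p = 0.0561) in D2A1 cells, with -0.54, -3 and -4.58 in batches 1, 2 and 3, and -0.46 (SE 0.60, adjusted p = 0.732) in D2.OR cells. Between the lines it differed by -1.24 (SE 0.61, adjusted p = 0.124) in 2D and by 0.96 (SE 0.62, adjusted p = 0.218) in 3D, with an interaction of 2.19 (SE 0.88, adjusted p = 0.246). Without batch 1 the line differences were -1.45 (adjusted p = 0.016) and 1.82 (adjusted p = 0.00689). In the same fit the change in D2A1 cells was -3.90 (adjusted p = 0.000862) and the interaction 3.27 (adjusted p = 0.0112), and leaving out D2A1 3D replicate 1 alone gave -3.64 (adjusted p = 0.00527) and 3.23 (adjusted p = 0.037). The ratio of Bhlhe40 to Bhlhe41 in TPM was 15.6 and 21.8 in batches 3 and 2 of D2A1 3D and 2.76 in batch 1, against 1.45 to 3.58 in D2A1 2D.

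Dab2 did not pass the threshold in any of the 5 comparisons. It was at 21.89, 25.86 and 34.79 TPM in D2A1 2D and at 13.2, 16.55 and 14.05 TPM in D2A1 3D. D2.OR libraries held 9.58, 23.26 and 26.64 TPM in 2D and 18.51, 19.26 and 19.63 TPM in 3D. The D2A1 groups did not overlap, and the D2.OR 2D libraries spread on both sides of the 3D ones. The log2-fold change (3D–2D) was -0.80 (SE 0.24, adjusted p = 0.0697) in D2A1 cells, where it was negative in 3 of 3 batches, and -0.04 (SE 0.24, adjusted p = 0.957) in D2.OR cells. Without batch 1 the change in D2A1 cells was -0.91 (adjusted p = 0.00589). Between the lines Dab2 differed by -0.38 (SE 0.23, adjusted p = 0.207) in 2D, where the groups overlapped, and by 0.38 (SE 0.23, adjusted p = 0.198) in 3D, where all D2.OR libraries were above all D2A1 libraries.

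**Figure D3:**
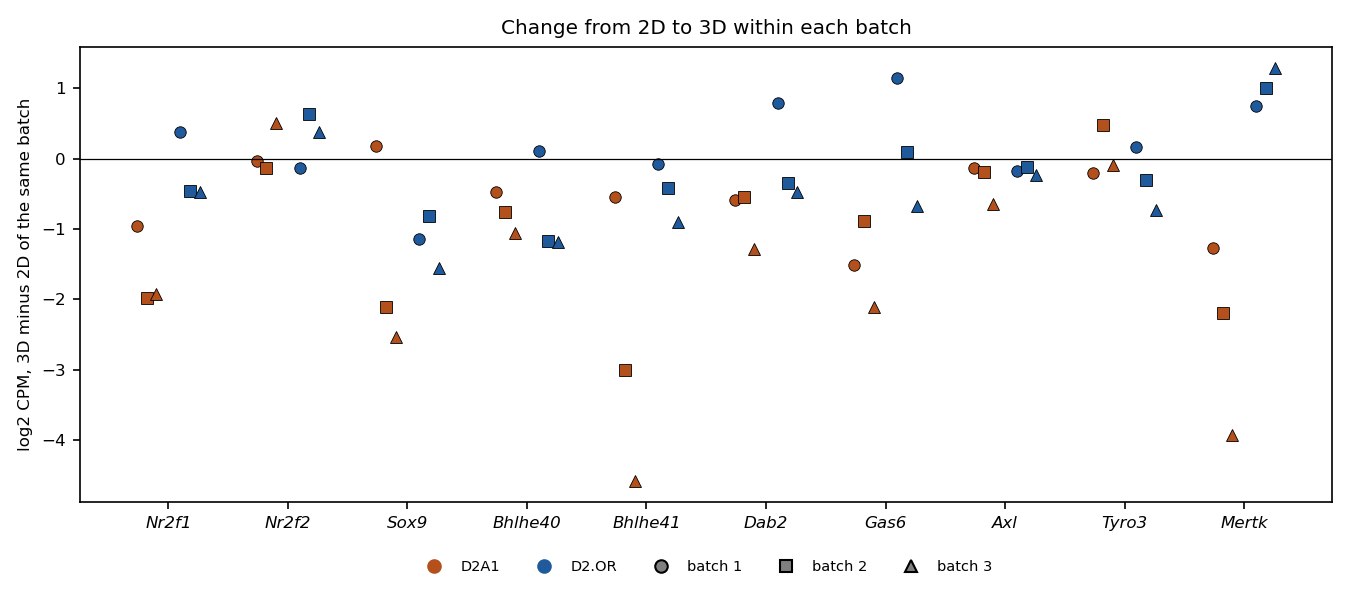
Difference in log2 CPM between the 3D and the 2D library of the same batch, for each of the 10 genes, in D2A1 and D2.OR cells, with 1 marker shape for each batch. Nr2f1 is lower in 3D in all 3 batches of D2A1, Mertk goes down in D2A1 and up in D2.OR in every batch, and the D2A1 points of Bhlhe41 run from -0.54 in batch 1 to -4.58 in batch 3.

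Gas6, the ligand, was at a trace level in D2A1 and at 41.65 TPM or more in D2.OR cells. It was at 0.39, 0.17 and 0.22 TPM in D2A1 2D (27, 14 and 17 counts) and at 0.12, 0.07 and 0.03 TPM in D2A1 3D (12, 7 and 3 counts). D2.OR libraries held 121.85, 130.42 and 66.64 TPM in 2D (12849, 10006 and 4998 counts) and 295.67, 141.15 and 41.65 TPM in 3D (24780, 13205 and 3942 counts). The lowest D2.OR library was above the highest D2A1 library in either culture. Gas6 was 479-fold higher in D2.OR cells in 2D (log2-fold change 8.91, SE 0.46, adjusted p = 1.33e-06) and 1860-fold higher in 3D (10.86, SE 0.52, adjusted p = 8.43e-07), and both calls held in 23 of 23 alternatives. The sizes of these folds rest on the few D2A1 counts, and with a pseudocount of 1 TPM the log2 differences became 6.36 and 6.82.

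Between the cultures Gas6 did not pass the threshold. In D2.OR cells its within-batch log2 differences (3D–2D) were 1.15, 0.09 and -0.68, with 0.20 (SE 0.31, adjusted p = 0.776) in the fit, so that the batches did not share a direction. In D2A1 cells the value was -1.75 (SE 0.63, adjusted p = 0.101), at levels of a few counts. Gas6 was 2.24-fold higher in batch 1 than in batches 2 and 3 (log2-fold change 1.16, SE 0.29, adjusted p = 0.0293), a call that was lost in 12 of 20 alternatives.

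Markers of fibroblasts, which also express Gas6, moved with the line difference. Of 8 such markers, 7 were tested and 5 were higher in D2.OR cells in each culture, and their summed level was 28.69 to 78.47 TPM in D2A1 and 138.71 to 372.23 TPM in D2.OR libraries. Fap was at 0.02 to 0.35 TPM in D2A1 and at 13.16 to 35.39 TPM in D2.OR libraries, while Thy1 was at most 0.15 TPM and Lum at most 0.34 TPM in every library. In these bulk samples, fewer cells of a type and less RNA per cell cannot be told apart, and the part of these markers in the Gas6 result was not tested.

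The 3 receptors differed from one another in level and direction. Axl held most of the TAM receptor TPM, with 84% to 96.3% of the summed TPM of the 3 receptors in each library. It was at 234.24, 172.37 and 223.32 TPM in D2A1 2D and at 213.34, 137.53 and 130.74 TPM in D2A1 3D. D2.OR libraries held 316.77, 262.43 and 299.55 TPM in 2D and 312.54, 248.12 and 257.76 TPM in 3D. Every D2.OR library was above every D2A1 library. Axl was 1.55-fold higher in D2.OR cells in 2D (log2-fold change 0.63, SE 0.12, adjusted p = 0.00185) and 1.71-fold higher in 3D (0.78, SE 0.12, adjusted p = 0.000518), and without replicate 2 the adjusted p in 2D was 0.0655. Its log2-fold changes (3D–2D) were -0.32 (SE 0.12, adjusted p = 0.1) in D2A1 and -0.18 (SE 0.11, adjusted p = 0.455) in D2.OR cells. With batch 1 left out that in D2A1 was -0.42 (adjusted p = 0.0294), past the threshold. Axl was 1.24-fold higher in batch 1 (log2-fold change 0.31, SE 0.09, adjusted p = 0.0425), which was lost in 14 of 20 alternatives.

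Tyro3 was the only one of the 10 genes that was lower in D2.OR cells in the tests between the lines. D2A1 libraries held 22.4, 20.95 and 24.92 TPM in 2D and 19.88, 26.08 and 21.85 TPM in 3D. D2.OR libraries held 6.52, 8.38 and 12.61 TPM in 2D and 8.52, 6.68 and 7.45 TPM in 3D. No D2.OR library reached the level of any D2A1 library. Tyro3 was 2.35-fold lower in D2.OR cells in 2D (log2-fold change -1.23, SE 0.19, adjusted p = 0.000725) and 3.03-fold lower in 3D (-1.60, SE 0.19, adjusted p = 0.00016), and both calls held in 23 of 23 alternatives. Its share of the TAM receptor TPM was 8.31% to 15.9% in D2A1 and 1.93% to 4.03% in D2.OR libraries.

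Mertk separated batch 1 from batches 2 and 3 in all 4 groups. Batch 1 held 12.95, 5.38, 15.07 and 27.26 TPM in D2A1 2D, D2A1 3D, D2.OR 2D and D2.OR 3D. Batch 2 held 0.66, 0.14, 2.15 and 4.11 TPM, and batch 3 held 0.94, 0.04, 0.94 and 2.39 TPM in the same order. Every batch 1 library was above every library of the other batches. Mertk was 16.2-fold higher in batch 1 (log2-fold change 4.01, SE 0.41, adjusted p = 0.00122), which held in 20 of 20 alternatives. Ptprc, Adgre1, Lyz2, C1qa, C1qb and C1qc were at or under 0.09 TPM in batch 1 too, Cd68 was at 4.85 to 10.04 TPM there, and Cd14 was lower in batch 1 (log2-fold change -1.94, adjusted p = 0.00439). Of the epithelial and carcinoma markers, 2 of 7 tested were higher in batch 1, Cdh1 (2.58, adjusted p = 0.000236) and Vim (1.15, adjusted p = 0.00461). Of the fibroblast markers, 2 of 7 tested were higher, the collagen genes Col1a1 (1.55, adjusted p = 0.033) and Col1a2 (2.10, adjusted p = 0.0148). The part of these markers in the batch differences of Mertk, Gas6 and Axl was not tested. 

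Within batches, Mertk was higher in D2.OR than in D2A1 cells in 3D by 2.31, 4.96 and 5.34 on the log2 CPM scale. With the batch in the model the difference was 3.81 (SE 0.61, adjusted p = 0.00082), although the TPM values of the groups overlapped. Its size rests in part on 20 and 8 counts in batches 2 and 3 of D2A1 3D, and limma on log2(TPM + 1) gave 2.01 (SE 0.19, adjusted p = 4.82e-05). In edgeR, without the replicate block it was 2.60 (SE 1.80, adjusted p = 0.253). In 2D it was 0.71 (SE 0.55, adjusted p = 0.313). From 2D to 3D Mertk went down in every batch of D2A1 (-1.27, -2.19 and -3.92) and up in every batch of D2.OR cells (0.75, 1 and 1.29), and neither change passed the threshold (adjusted p = 0.066 and 0.346). The interaction was 3.09 (SE 0.80, adjusted p = 0.145), and without batch 1 it was 4.38 (SE 0.64, adjusted p = 0.00698). The change in D2A1 cells was -3.25 (adjusted p = 0.00313) without batch 1.

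**Figure D4:**
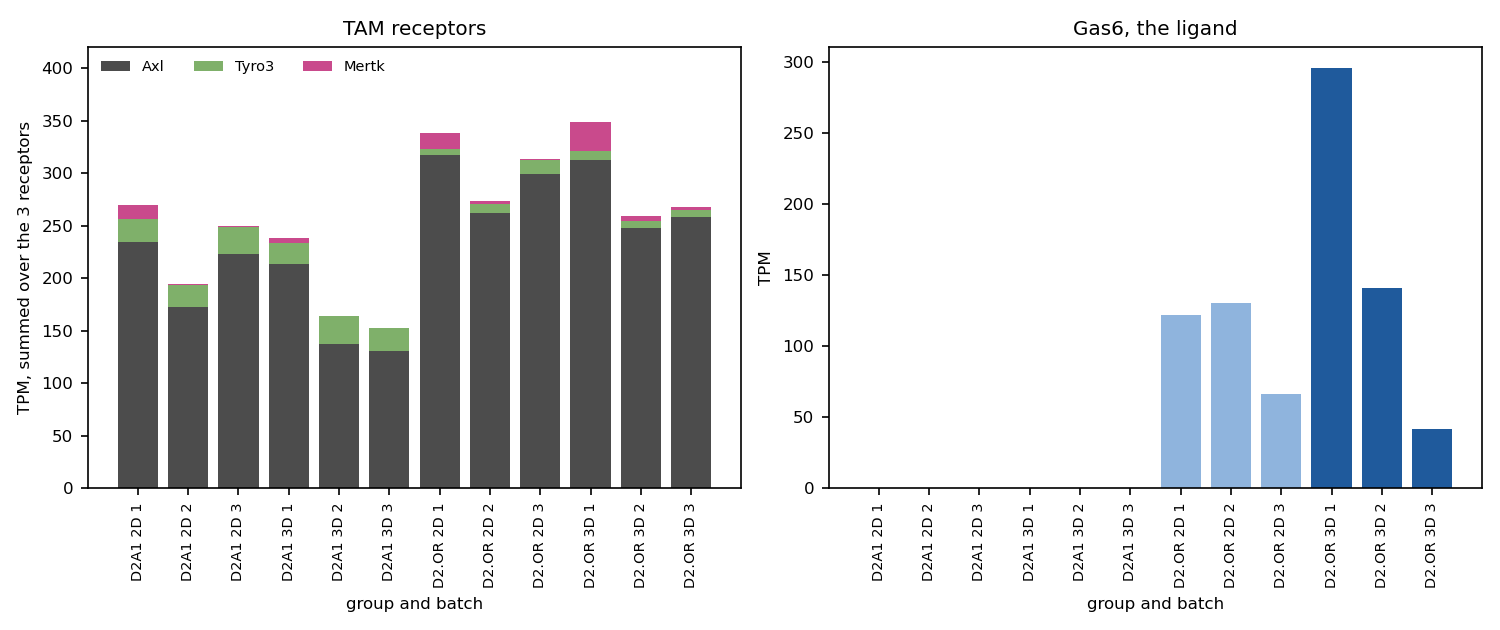
TPM of Axl, Tyro3 and Mertk stacked in each library (left) and TPM of their ligand Gas6 (right), by group and batch, on axes that start at 0. Axl makes up 84% to 96.3% of every receptor bar, Mertk is visible mainly in batch 1, and Gas6 is at most 0.39 TPM in the 6 D2A1 libraries and at least 41.65 TPM in the 6 D2.OR libraries.

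Read across the set, more of the 10 genes were lower than higher in 3D culture of D2A1 cells. The log2-fold change was negative for 8 of 10, with a median of -1.16 against 0.00 over all genes, and 8 of 10 had an unadjusted p under 0.05, as did 5278 of 16823 genes. After adjustment 1 passed (Nr2f1), beside 2.21% of all genes that fell. DESeq2 called 8 of 10 lower, beside 11.9% of all genes that it called lower. The fit without batch 1 called 7 lower (Nr2f1, Sox9, Bhlhe40, Bhlhe41, Dab2, Axl and Mertk), beside 19% of all genes called lower. In D2.OR cells the median was -0.18, 2 of the 10 genes had an unadjusted p under 0.05, and the fit without batch 1 called 3 lower (Nr2f1, Sox9 and Bhlhe40), beside 4.71% of all genes called lower. For the interaction, 0 of 10 passed, 5 had an unadjusted p below 0.05 and DESeq2 called 3 (Nr2f1, Gas6 and Mertk), beside 5.61% of all genes in either direction. Leaving batch 1 out gave Nr2f1, Bhlhe41 and Mertk, beside 17.9% of all genes in either direction.

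The likeness of the 10 genes to one another over the 12 libraries is given as Pearson's r of log2 CPM, a description only, since libraries of a line and of a batch are not independent points. Gas6 and Tyro3 had r = -0.945, which became -0.303 once the group means were taken out. Gas6 and Nr2f2 had r = 0.872, which became -0.783. Within the groups the first value was thus smaller and the second had the opposite sign. Taking out the group means leaves the batch differences in place. With the group means taken out, the highest values were 0.888 for Axl and Bhlhe41, 0.848 for Axl and Mertk and 0.806 for Sox9 and Bhlhe41. Among all genes of at least 1 TPM on average, the nearest to Nr2f1 were Masp1, a serine protease of the lectin complement pathway (r = 0.968), and Pacs2, a sorting protein (r = 0.957). Masp1 averaged 50.99 TPM in D2A1 2D, 16.22 in D2A1 3D, 44.42 in D2.OR 2D and 47 in D2.OR 3D, lowest in D2A1 3D as Nr2f1 was. Nr2f1 had 31 genes at r over 0.9, Gas6 1360 (nearest Acta1 at 0.996 and Fbln5 at 0.994), Tyro3 760 (Mier2 and Serf1, both 0.984), Nr2f2 581 (Vps36 at 0.993, Srgn at 0.987) and Axl 491 (Hspb2 at 0.991). Mertk had 81 (Dpp7 at 0.968, Man2b2 at 0.966), Bhlhe40 121 (Itpkc at 0.964, Iffo2 at 0.963), Bhlhe41 47 (Crebrf at 0.968, Klhl24 at 0.959), Sox9 21 (Wwox at 0.946, 2210016L21Rik at 0.943) and Dab2 1 (Adamts7 at 0.913), followed by Runx1 at 0.866. With the group means taken out, Mertk had 470 genes at r over 0.9, Axl 176, Bhlhe41 148 and Nr2f1 12. On this measure the nearest were Mus81 and Gsk3b for Nr2f1 (0.971 and 0.963), Cav2 and Tcte2 for Mertk (0.994 and 0.992) and Vgll4 and Pwwp2b for Axl (0.983 and 0.98). The other genes named by the same rule were Mpp6 and Vps36 for Nr2f2 (0.975 and 0.971), Tmem184b and Tead4 for Sox9 (0.946 and 0.935), Zfp512b and Hspg2 for Bhlhe40 (0.942 and 0.939), Mpzl1 and Agrn for Bhlhe41 (0.982 and 0.981), Rab11a and Eml1 for Dab2 (0.974 and 0.967), 1810021B22Rik and Gng7 for Gas6 (0.983 and 0.959) and Rbpms2 and Wdr54 for Tyro3 (both 0.925).

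Genes that work with the 10 were taken from 6 lists and are described by counts, beside the backgrounds of 49.7% in 2D and 53.7% in 3D. In the list of NR2 receptors and retinoid partners, 16 of 22 genes were tested, and 10 differed between the lines in 2D (9 higher, 1 lower in D2.OR) and 11 in 3D (10 higher, 1 lower), with median log2-fold changes of 0.53 and 0.87. Over the alternatives the 2D counts of the 6 lists moved, and were lowest without replicate 2 or 3: 7 to 12 for this list, 5 to 21 for TGF-beta, 4 to 10 for SOX, 6 to 14 for the clock, 5 to 13 for DAB2 and 5 to 17 for GAS6-TAM. The 3D counts moved as well, from 5 to 17 for GAS6-TAM (14 with all libraries), 7 to 18 for TGF-beta (14), 8 to 21 for DAB2 (15), 5 to 15 for the clock (10), 6 to 9 for SOX (8) and 7 to 12 for this list. The share of all genes moved in the same fits, to 24.5% in 2D and 30.7% in 3D without replicate 2, to 31.5% and 35% without replicate 3 and to 53.8% and 56.9% without replicate 1. Nr2f6, a further orphan receptor, averaged 80.41 ± 7.52 TPM in D2A1 2D and 148 ± 13.3 TPM in D2.OR 2D (SD, n = 3), a log2-fold change of 1.19 (SE 0.16, adjusted p = 0.000332). Rarg, a retinoic acid receptor, was higher by 0.87 (SE 0.13, adjusted p = 0.000588). Rarb had the pattern of Nr2f1 within D2A1 cells: it averaged 30.24 ± 7.42 TPM in 2D and 9.03 ± 1.6 TPM in 3D and fell by 1.82 (SE 0.27, adjusted p = 0.0244), whereas in D2.OR cells it averaged 56.63 ± 11.8 and 49.94 ± 17 TPM. In edgeR with all libraries no other gene of this list passed between the cultures. DESeq2 on all libraries called 2 of 16 higher in D2.OR cells and 2 of 16 lower in D2A1 cells, beside 3.2% and 11.9% of all genes. In edgeR without batch 1, 7 of 16 fell in D2A1 cells, beside 19% of all genes called lower. The call of Rarb was lost in 8 of 23 alternatives. The interactions of Rarb (1.52, SE 0.37) and of the retinoid X receptor Rxra (1.20, SE 0.29) had adjusted p of 0.128 and 0.126.

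In the list of TGF-beta, BMP and p38 signaling, 11 of 26 tested genes differed in 2D (9 higher, 2 lower) and 14 in 3D (11 higher, 3 lower). The 3 TGF-beta ligands were all higher in D2.OR cells, while the BMP ligands Bmp4 and Bmp7 were at most 0.03 TPM in every library and were not tested. Tgfb3 averaged 24.12 ± 0.856 TPM in D2A1 2D and 183.1 ± 27.6 TPM in D2.OR 2D, a log2-fold change of 3.05 (SE 0.20, adjusted p = 5.22e-06), and Tgfb1 was higher by 1.90 (SE 0.15, adjusted p = 1.81e-05). Tgfb2, the ligand tied to dormancy and named here after its values were seen, averaged 2.45 ± 1.46 TPM in D2A1 2D and 36.03 ± 1.69 TPM in D2.OR 2D (log2-fold change 4.33, SE 0.42, adjusted p = 5.34e-05), with a like difference of 4.42 in 3D. The 2 genes of the list that passed between the cultures in edgeR with all libraries were also named after their values were seen. They were the receptors Tgfbr2 and Tgfbr3, which fell in D2A1 cells by 1.24 (adjusted p = 0.045) and by 1.39 (adjusted p = 0.0453). DESeq2 on all libraries called 9 of 26 in D2A1 cells (2 higher, 7 lower) and 3 of 26 in D2.OR cells (1 higher, 2 lower), beside 20.9% and 6.98% of all genes. The interactions of Tgfb3 (1.40, SE 0.26, adjusted p = 0.091) and of the p38-beta kinase Mapk11 (-1.65, SE 0.47, adjusted p = 0.156) did not pass.

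Of 12 tested genes of the SOX list, 8 differed between the lines in each culture (6 higher, 2 lower in D2.OR). Sox5 averaged 0.207 ± 0.107 TPM in D2A1 2D and 2.58 ± 1.6 TPM in D2.OR 2D (log2-fold change 5.15, SE 0.53, adjusted p = 6.93e-05). This fold is from counts, which are not scaled for length, and exceeds the ratio of the TPM values. Snai2, an EMT factor, was higher in D2.OR 2D by 1.70 (SE 0.18, adjusted p = 8.23e-05) and, like Nr2f1, fell in D2A1 3D, by 1.22 (adjusted p = 0.0238). Sox2 rose by 0.51 (adjusted p = 0.0485) and Sox4 fell by 0.76 (adjusted p = 0.0489) in the same comparison, both named after their values were seen. The interactions of Sox12 (-0.93, adjusted p = 0.091) and Snai2 (1.11, adjusted p = 0.112) did not pass.

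Between the lines, the share of clock genes that differed was near that of all genes. Of 20 tested, 9 differed in 2D (3 higher, 6 lower in D2.OR), or 45% beside 49.7% of all genes, and 10 in 3D (4 higher, 6 lower), or 50% beside 53.7%, and none passed between the cultures in either line in edgeR. In D2A1 cells 12 clock genes passed between the cultures without replicate 1, beside 36.4% of all genes. Hlf, a PAR bZIP factor of clock output, averaged 56.13 ± 37 TPM in D2A1 2D and 2.61 ± 1.21 TPM in D2.OR 2D (log2-fold change -4.31, SE 0.25, adjusted p = 2.41e-06). Hlf was also lower in batch 1 (log2-fold change -1.92, adjusted p = 0.00116). Npas2, a CLOCK paralog, averaged 0.00333 TPM in D2A1 2D and 0.807 ± 0.636 TPM in D2.OR 2D. The interaction of Arntl2 (-1.25, adjusted p = 0.154) did not pass.

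Among the endocytic partners of DAB2, 8 of 30 tested genes differed in 2D (7 higher, 1 lower), a share under the background, and 15 in 3D (11 higher, 4 lower). Dvl2, a Wnt transducer bound by DAB2, averaged 60.54 ± 8.91 TPM in D2A1 2D and 21.05 ± 3.08 TPM in D2.OR 2D (log2-fold change -1.40, SE 0.15, adjusted p = 8.25e-05), and the AP-2 subunit Ap2a2 was higher by 0.71 (SE 0.10, adjusted p = 0.000386). Fcho2, a clathrin pit factor named after its values were seen, fell in D2A1 3D by 0.39 (adjusted p = 0.0489). The interactions of Picalm (0.65, adjusted p = 0.168) and Myo6 (0.86, adjusted p = 0.199) did not pass.

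In the list of GAS6-TAM ligands, processing and effectors, 16 of 25 tested genes differed in 2D (10 higher, 6 lower) and 14 in 3D (9 higher, 5 lower). In edgeR with all libraries, none of the genes tested in any of the 6 lists passed the interaction. DESeq2 on all libraries called 2 NR2 and retinoid, 3 TGF-beta, 3 SOX, 1 clock, 0 DAB2 and 2 GAS6-TAM genes, beside 5.61% of all genes. Without replicate 1 the interaction was past the threshold in edgeR for 4 of 16 NR2 and retinoid, 9 of 26 TGF-beta and 5 of 12 SOX genes. In the same fit it was past it for 7 of 20 clock, 5 of 30 DAB2 and 6 of 26 GAS6-TAM genes, beside 17.9% of all genes. Pros1, the other vitamin K-dependent TAM ligand and named after its values were seen, averaged 55.39 ± 4.8 TPM in D2A1 2D and 28.58 ± 20.5 TPM in D2.OR 2D, and did not pass (log2-fold change -1.02, SE 0.51, adjusted p = 0.125). In D2A1 cells the TPM of Pros1 was above that of Gas6. Vkorc1, which recycles vitamin K, was higher in D2.OR 2D by 0.76 (SE 0.12, adjusted p = 0.000815). Elmo1, an engulfment adaptor, was lower (log2-fold change -2.21, SE 0.31, adjusted p = 0.00041). Between the cultures, the kinase Src fell by 0.76 (adjusted p = 0.0233) and the Vkorc1 paralog Vkorc1l1 rose by 0.43 (adjusted p = 0.0386) in D2.OR cells, with interactions of -0.59 (adjusted p = 0.156) and 0.36 (adjusted p = 0.17). Both calls were lost without replicate 2 (adjusted p = 0.51 and 0.648) or 3 (0.313 and 0.372), and when replicate 2 or 3 of D2.OR 2D or of D2.OR 3D alone was left out (0.0797 to 0.147 for Src, 0.156 to 0.208 for Vkorc1l1). Of all genes, 0% passed without replicate 2, 0.00589% without replicate 3 and at most 0.174% in those single-library fits. The call of Vkorc1l1 was lost in 15 of 23 alternatives in all.

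The calls given for list genes in D2A1 3D (Rarb, Tgfbr2, Tgfbr3, Snai2, Sox2, Sox4 and Fcho2) and that of Cd14 were likewise lost without replicate 2 and without replicate 3, fits in which no gene at all passed. They were also lost when replicate 2 or 3 of D2A1 2D or of D2A1 3D alone was left out, except that Snai2 kept its call without D2A1 2D replicate 3. At most 0.133% of all genes passed in those fits. They held in 5 (Fcho2) to 15 (Rarb and Snai2) of 23 alternatives. Without batch 1 the counts between the cultures in D2A1 cells were 15 of 26 for TGF-beta, 7 of 12 for SOX, 15 of 30 for DAB2 and 6 of 26 for GAS6-TAM, beside 36.4% of all genes. In D2.OR cells they were 2 of 16 for NR2 and retinoid partners, 5 of 26 for TGF-beta, 4 of 12 for SOX, 2 of 20 for the clock, 1 of 30 for DAB2 and 6 of 26 for GAS6-TAM, beside 8.4%. DESeq2 on all libraries called 5 of 12 for SOX, 5 of 20 for the clock, 6 of 30 for DAB2 and 7 of 25 for GAS6-TAM in D2A1 cells, beside 20.9%. Its counts in D2.OR cells were 1 of 12, 2 of 20, 1 of 30 and 5 of 25 in the same order, beside 6.98%.

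**Figure D5:**
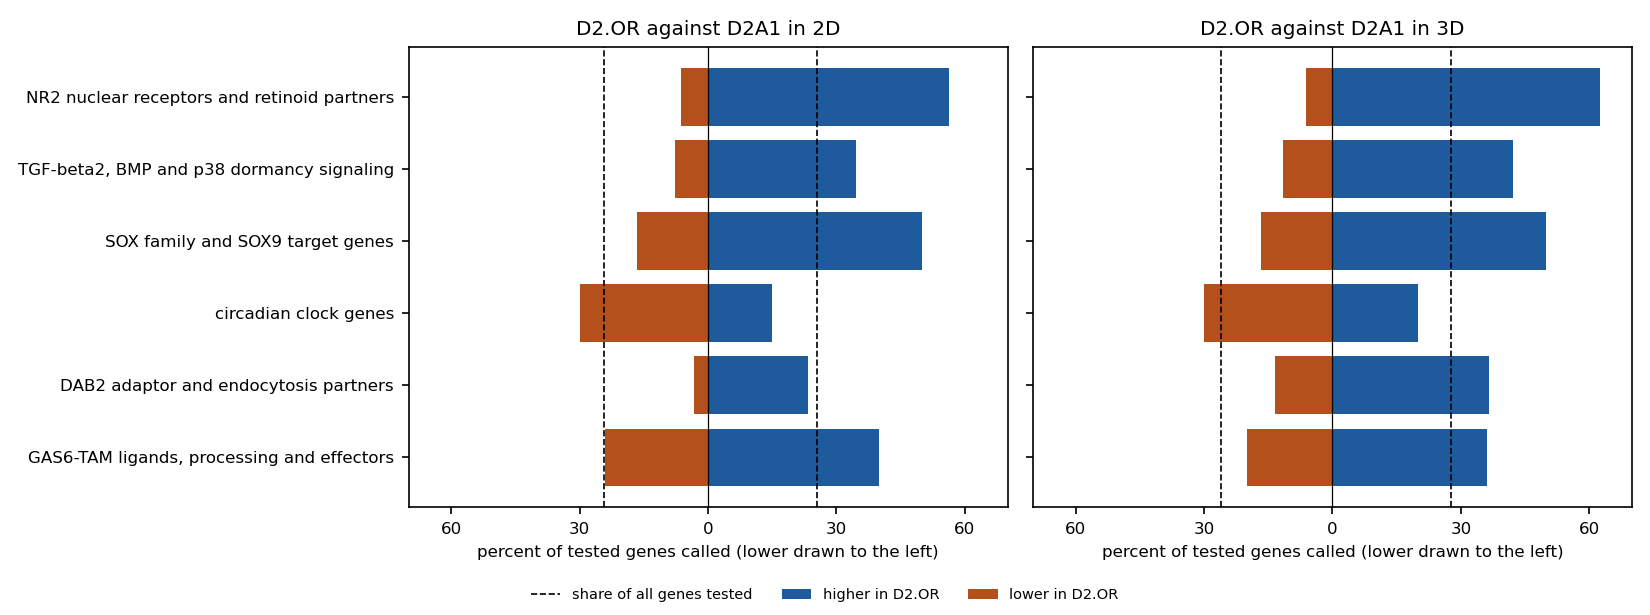
Percent of the tested genes of each of the 6 lists called higher (right) or lower (left) in D2.OR than in D2A1 cells, in 2D and 3D, with dashed lines at the shares of all tested genes (25.4% and 24.4% in 2D, 27.6% and 26% in 3D). The NR2 and retinoid list holds 9 genes higher and 1 lower of 16 in 2D, and the clock list 3 higher and 6 lower of 20.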

How the data were processed

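RNA of 12 cultures (2 lines, 2 cultures, 3 batches) was sequenced. Per the submitters' processing notes and methods, reads were checked with FastQC 0.11.4, trimmed with Trimmomatic 0.32, aligned with STAR 2.5.3 to GRCm38 with GENCODE M15 and quantified with RSEM 1.3.0. The authors deposited expected counts, not normalized, and TPM (a share of all transcripts in a library), which RSEM scales by the gene's effective length in each library, so that a fold from counts and a ratio of TPM can differ. RSEM divides reads that match several genes, and strandedness is not given in the sources used here.

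Expected counts were rounded (10.7% to 11.8% were not whole) and tested with edgeR 4.0.16 (quasi-likelihood, TMM, filterByExpr) in R 4.3.3, on a term for each group plus the batch, over all 12 libraries. The common biological coefficient of variation was 21.2%. P-values were Benjamini-Hochberg adjusted over 16823 genes at 0.05. Depths bear on counting error only. Log2 CPM used a prior count of 2. The batch comparison was added after seeing the data. The test was tried on simulated data.

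The 10 genes and the lists were chosen with earlier results of these data known. Named were the 10 genes, per list the 2 genes of smallest p in the 2D line comparison and the interaction (at least 1 TPM in a group), and per gene of the 10 the 2 genes of highest correlation, with and without group means. Exceptions are marked, and 2 genes that the rule names are not reported here. Replicate numbers pair libraries by batch, as the labels and the study's model have it. Deviations from group means correlated at a median of 0.267 over 18 same-number pairs and -0.195 over other pairs. Itgam, carried by 2 identifiers, was not used. Alternatives were no block, DESeq2 1.42.0, limma 3.58.1 on log2(TPM + 1) or log2(TPM + 0.1), other scalings, no filter, the 6 libraries compared, and left-out batches or libraries.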

Additional observations from a re-analysis of the deposited data

Results flagged for a closer look

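For 3 of the 10 genes, the batches of 1 condition all moved one way and those of the other condition all moved the opposite way. With all libraries the tested difference was past the threshold in edgeR for none of them. DESeq2 called that of Mertk (adjusted p = 0.00312), and those of Mertk and Bhlhe41 passed without batch 1 (adjusted p = 0.00698 and 0.0112) and without D2A1 3D replicate 1 alone (0.0105 and 0.037). Mertk went down from 2D to 3D in 3 of 3 batches of D2A1 and up in 3 of 3 batches of D2.OR cells, with an interaction of 3.09 (adjusted p = 0.145, edgeR). Bhlhe41 was lower in D2.OR than in D2A1 cells in 3 of 3 batches in 2D and higher in 3 of 3 batches in 3D, with an interaction of 2.19 (adjusted p = 0.246). Dab2 did the same, with an interaction of 0.76 (adjusted p = 0.276) and within-batch line differences of -0.85, -0.04 and -0.34 in 2D and 0.52, 0.14 and 0.46 in 3D.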

How the results depend on the processing

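Over all fits, 1188 of 1340 fold changes of the 10 genes kept their direction and their side of the threshold, 39 lost and 55 gained a call, 58 values called in neither fit changed sign, and no called value was reversed. Most values were not past the threshold with all libraries, so for most, keeping their side meant staying short of it. Of the 39 lost calls, 14 were of Axl and 12 of Gas6 for batch 1, and 7 of Nr2f1 between the cultures in D2A1 cells. In 2D the lines differed for 5 genes, and for 3 to 7 when a batch or library was left out (3 without replicate 2, beside 24.5% of all genes, and 7 without replicate 1, beside 53.8%). In 3D they differed for 7, and for 6 to 8 when one was left out (6 without replicate 2, beside 30.7%, or replicate 3, 35%, and 8 without replicate 1, 56.9%, or D2A1 3D replicate 1, 49.5%). From 2D to 3D in D2.OR cells, 0 genes passed, against 2 when only the 6 libraries compared were fitted (1 higher, 1 lower, beside 4.97% of all genes), 3 without replicate 1 (8.4%), 1 without D2.OR 2D replicate 1 (1.31%), and 0 to 3 over all left-out batches and libraries. In D2A1 cells 1 passed, against 8 by DESeq2 (beside 20.9% of all genes), 3 by limma with either pseudocount (3.89% with 1, 6.77% with 0.1), 0 with the 6 libraries (0.0981%), 7 without replicate 1 (36.4%), 3 without D2A1 2D replicate 1 (30.2%) or D2.OR 2D replicate 1 (2.62%), 4 without D2A1 3D replicate 1 (12.7%), and 0 to 7 over all left-out batches and libraries. For the interaction 0 passed, against 3 by DESeq2 (5.61%) and 0 to 3 when one was left out (3 without replicate 1, 17.9%, or D2A1 3D replicate 1, 2.89%). For batch 1, 3 passed (13.2%), against 5 by DESeq2 (19.9%) and 1 without the filter on low counts (5.88%). When a library was left out the count was 1 to 5, with 5 without D2A1 2D replicate 1 (20.4%) or 3 (16.1%). The fits with 1 called 7.57% to 9.8% of all genes. Among all genes, 272 passed in D2.OR and 603 in D2A1 cells, against 1174 and 3512 by DESeq2 and 19 and 50 without the replicate block, and the interaction had 944 by DESeq2. Without the replicate block the 10 genes lost 1 call, that of Mertk between the lines in 3D (adjusted p = 0.253). Scaling by the library total alone moved the median of all genes by -0.16 in the 2D and -0.1 in the 3D line comparison, and the share of calls that were higher in D2.OR from 51% to 38.5% in 2D, and from 51.8% to 69.1% for 3D against 2D in D2.OR cells. The calls of the 10 genes between the lines were 5 and 7 under that scaling too, beside 52.2% and 55.3% of all genes. With 3 libraries a group, the low D2A1 counts of Gas6 limit how well the size of its fold is known. The causes of these changes were not tested.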
